A study of Mus musculus with 18 samples.

Results

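Retinoic acid is a diffusible signal made from vitamin A, and 9 mouse genes that make it, break it down, bind it or answer it were followed across an allelic series of Tbx1. The 9 genes were taken by name: Aldh1a2 and Aldh1a3 (synthesis), Cyp26a1, Cyp26b1 and Cyp26c1 (breakdown), and Crabp1, Crabp2, Rarb and Dhrs3 (binding and response). A probe set with a single gene symbol was found for 8 of the 9 genes, and these 8 genes had 10 probe sets among the 45037 on the array, which stand for 18193 named genes. Aldh1a3 had 3 probe sets and the other genes had 1 each, and Cyp26c1 was not analysed here.

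Each of 18 Affymetrix GeneChip arrays held the RNA of 1 whole embryo collected at embryonic day 9.5, with 2 embryos for each genotype. The 9 genotypes were -/-, Neo/Neo, Neo2/-, Neo2/Neo, Neo2/Neo2, +/-, Neo/+, Neo2/+ and WT (Tbx1+/+), all on a mixed 129SvEv and C57Bl/6 background. The minus sign is the null allele of Tbx1, and Neo and Neo2 are alleles described elsewhere as having reduced function. No embryo of the first 5 genotypes carried a wild-type allele (10 arrays), +/-, Neo/+ and Neo2/+ embryos carried 1 (6 arrays) and WT embryos carried 2 (2 arrays). The alleles are germline changes present in every cell, and the labels give no litter and no stage finer than the day.

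Retinoic acid is made in the embryo from retinaldehyde by the ALDH1A enzymes and is cleared by the CYP26 enzymes, so that its level depends on where both are present. Inside the cell it is carried by CRABP proteins, and in the nucleus it binds retinoic acid receptors, which sit on direct repeats of a short DNA motif. Aldh1a2 supplies most of the signal in the trunk of the early embryo, Cyp26a1 clears it in the tail bud, and retinoic acid is known to influence the pharyngeal arches and the heart, where Tbx1, a T-box transcription factor, also acts. Rarb, Cyp26a1 and Dhrs3 are among the genes known to be induced by retinoic acid. The question the allelic series allows is whether the level of these genes differed with the Tbx1 genotype.

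The promoters are shown because Rarb and Cyp26a1 are textbook direct targets of the receptors. RefSeq promoter windows of 300 bases (250 before and 50 after a transcription start, mouse GRCm38.p6) were matched for 7 of the 9 genes, in 9 windows. Each window was searched on both strands for the hexamer AGGTCA or one of its variants (with the letters AGTTCA, the letters GGGTCA or the letters GGTTCA), repeated on the same strand after 1, 2 or 5 bases. In the 2 sequences below, written 5′ to 3′ on the strand of the gene, capitals mark the hexamers of the repeat spaced by 5 bases.
Rarb promoter (chr14:16575427-16575726, minus strand): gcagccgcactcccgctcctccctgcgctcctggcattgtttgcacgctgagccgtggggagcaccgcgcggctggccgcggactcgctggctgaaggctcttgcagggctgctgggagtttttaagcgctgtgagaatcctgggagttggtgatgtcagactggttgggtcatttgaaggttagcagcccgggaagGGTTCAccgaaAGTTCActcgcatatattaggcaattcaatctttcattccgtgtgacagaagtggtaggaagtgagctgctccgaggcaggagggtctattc
Cyp26a1 promoter (chr19:37697558-37697857, plus strand): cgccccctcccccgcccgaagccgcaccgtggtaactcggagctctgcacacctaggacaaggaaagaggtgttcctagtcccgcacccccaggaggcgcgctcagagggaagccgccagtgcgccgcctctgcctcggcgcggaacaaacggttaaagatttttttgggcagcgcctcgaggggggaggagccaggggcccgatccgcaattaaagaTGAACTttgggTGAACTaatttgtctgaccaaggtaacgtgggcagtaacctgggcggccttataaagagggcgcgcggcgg

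In Rarb the repeat lay from 53 to 37 bases before the start and read along the strand of the gene. In Cyp26a1 it lay from 32 to 16 bases before the start and read along the opposite strand, which is why the capitals above show the reverse complement of AGTTCA. The same repeat was found in 32 of all 32851 promoter windows (0.0974%), and in none of the other 7 windows of these genes. Repeats spaced by 1 base (in 0.222% of all windows) and by 2 bases (in 0.268%) were found in none of the 9. A match is a run of letters and was not tested as a binding site. Cyp26a1 and Cyp26c1 lie next to each other on chromosome 19, with 0 annotated genes between them.

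Tbx1 itself was read first, as a check of the genotypes. Its log2 signal was 4.98 and 5.16 in the -/- embryos and 5.04 and 5.20 in the Neo/Neo embryos, against 6.54 and 6.63 in the WT embryos. It was 5.61 and 5.81 in Neo2/-, 5.65 and 5.67 in Neo2/Neo, and 6.62 in both Neo2/Neo2 embryos, so that Neo2/Neo2 embryos lay at the level of WT. In embryos with 1 wild-type allele it was 6.61 and 6.13 in +/-, 6.35 and 6.24 in Neo/+, and 6.59 and 6.50 in Neo2/+. The embryo labelled +/- replicate 1 thus read within the WT range and +/- replicate 2 below it, and no genotype with 1 wild-type allele was called against WT for Tbx1. In limma, Tbx1 was lower by 1.52 on the log2 scale in -/- than in WT (-1.52, SE 0.14, adjusted p = 0.00303), and the difference in Neo/Neo was -1.47 (adjusted p = 0.00286). Tbx1 was also lower, but not called, in Neo2/Neo (-0.92, adjusted p = 0.189) and Neo2/- (-0.88, adjusted p = 0.42). A log2 difference of 1 is a doubling of the signal, and a probe set was called where its p, adjusted across the whole array by Benjamini-Hochberg, was under 0.05. Array medians ran from 5.73 to 5.94, and markers of embryonic tissue were bright, with means of 9.43 to 10.61 for 9 cardiomyocyte genes.

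2 arrays stood apart from the rest before any gene was considered. The array of +/- replicate 1 lay at -100.6 on the first principal component, where all others lay between -6.07 and 13.38. The array of -/- replicate 1 lay at 73.2 on the third component, and it held a log2 signal of 10.74 of the uterine gene Prap1, against a median of 4.48 over the other arrays, while none of the other 8 uterine genes on the list was highest there. Results that moved without these arrays are given with and without them. Embryos read as female or male from Xist and Y-linked genes numbered 9 each, and both -/- and both WT embryos were female.

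Aldh1a3, which encodes a retinaldehyde dehydrogenase of the eye, nose and other restricted sites, varied most of the 8 genes. At its brightest probe set the log2 signal was 6.35 and 7.87 in -/-, 6.16 and 6.82 in Neo/Neo, 6.24 and 7.11 in Neo2/-, 5.31 and 5.42 in Neo2/Neo, and 7.36 and 7.75 in Neo2/Neo2. It was 7.20 and 7.31 in +/-, 6.87 and 7.08 in Neo/+, 6.49 and 6.07 in Neo2/+, and 6.19 and 6.25 in WT. The lowest embryo (Neo2/Neo replicate 1) and the highest (-/- replicate 2) differed 5.93-fold, and 99.2% of all probe sets had a smaller SD over the 18 arrays. The pair of -/- embryos was itself far apart, with an SD of 1.07, against a pooled within-genotype SD of 0.47.

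Ordered by their means from low to high, Aldh1a3 ran through Neo2/Neo, WT, Neo2/+, Neo/Neo, Neo2/-, Neo/+, -/-, +/- and Neo2/Neo2. Neighbours in this order overlapped in 6 of 8 steps, and the steps without overlap were those from Neo2/Neo to WT and from +/- to Neo2/Neo2. The share of such steps over all probe sets was not counted, here or for the genes below. The genotypes at the top and bottom of the order both lack a wild-type allele. By mean Tbx1 signal, Neo2/Neo2 was the highest genotype (6.62) and Neo2/Neo lay at 5.66, while -/-, the lowest at 5.07, was among the 3 highest for Aldh1a3. The other 2 probe sets of Aldh1a3 correlated with the brightest over the arrays at r = 0.845 and r = 0.80, and with each other at r = 0.63.

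**Figure D1:**
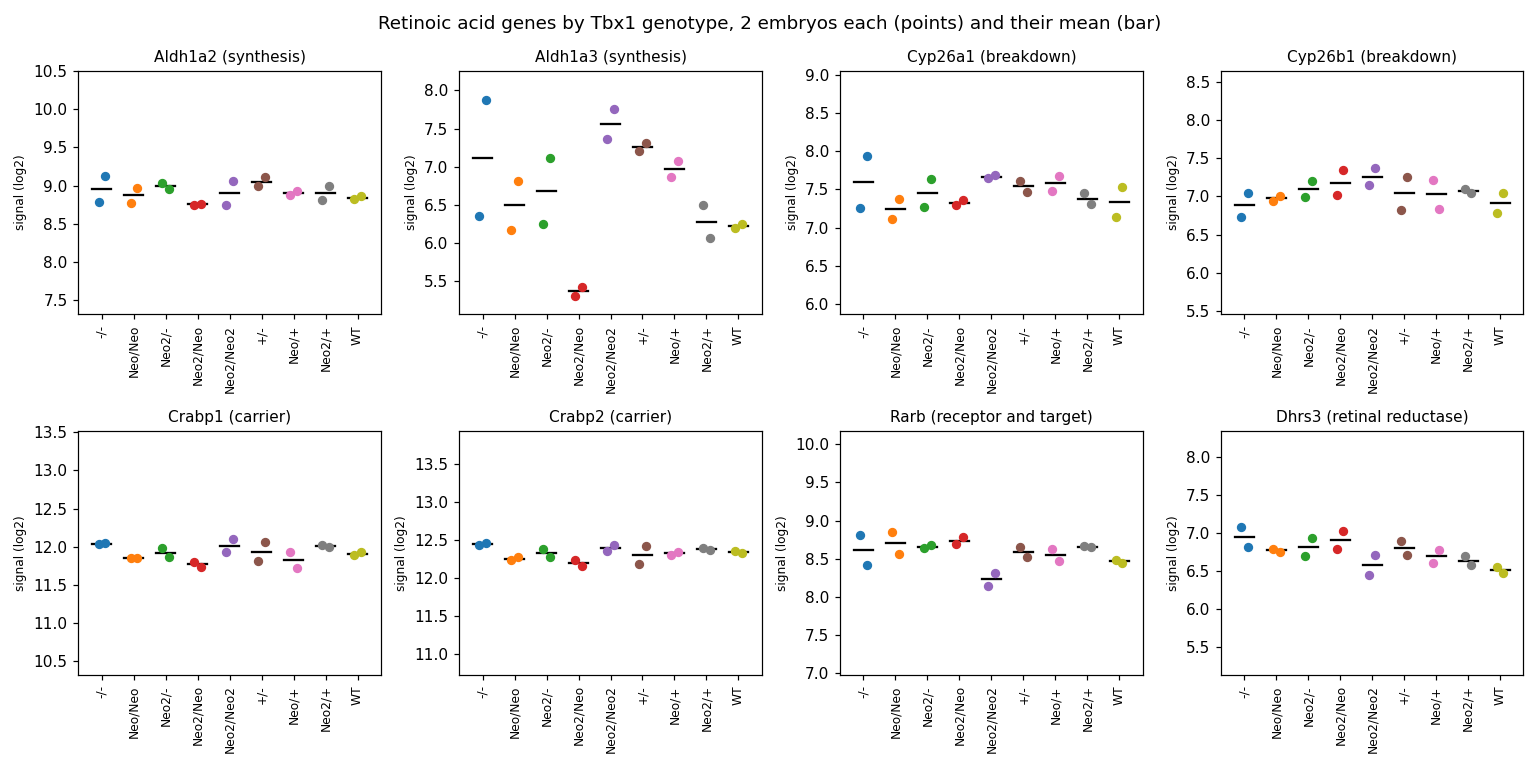
Log2 signal of the 8 measured genes (1 panel each, brightest probe set) in every embryo, by Tbx1 genotype on the horizontal axis from -/- at the left to WT at the right; points are embryos and bars are the means of 2 embryos. Aldh1a3 spans 5.31 to 7.87, while Crabp1 and Crabp2 stay within 11.72 to 12.10 and 12.16 to 12.47.

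Aldh1a2, the main source of retinoic acid in the trunk mesoderm at this stage, was nearly flat. Its log2 signal was 8.79 and 9.12 in -/-, against 8.82 and 8.86 in WT, and over all 18 arrays it ran from 8.74 in Neo2/Neo replicate 1 to 9.12 in -/- replicate 2. The WT values lay between the -/- values, and 7 of 8 neighbouring genotypes in its order overlapped. Its highest genotype mean was 9.05 in +/- and its lowest 8.75 in Neo2/Neo.

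The breakdown enzymes varied less than Aldh1a3. Cyp26a1, which clears retinoic acid in the tail bud, was 7.26 and 7.94 in -/-, 7.12 and 7.38 in Neo/Neo, 7.27 and 7.63 in Neo2/-, 7.29 and 7.36 in Neo2/Neo, and 7.65 and 7.69 in Neo2/Neo2. It was 7.62 and 7.47 in +/-, 7.48 and 7.68 in Neo/+, 7.45 and 7.31 in Neo2/+, and 7.14 and 7.53 in WT. All 8 neighbouring genotypes overlapped, and -/- replicate 2 was again the highest embryo of the series. Cyp26b1, which clears retinoic acid in the hindbrain and limb, was 6.74 and 7.04 in -/-, against 6.79 and 7.05 in WT, and it ran up to 7.37 in Neo2/Neo2 replicate 2. Here too all 8 neighbours overlapped.

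Crabp1 and Crabp2, which encode the cytoplasmic carriers of retinoic acid, were steady. Crabp1 read 12.04 in both -/- embryos, against 11.89 and 11.93 in the WT embryos. Crabp2 read 12.44 and 12.47 in -/- and 12.36 and 12.34 in WT. For both genes -/- was the highest genotype by mean, but the distance from WT was small: 0.13 (95% interval -0.10 to 0.36) for Crabp1 and 0.11 (-0.10 to 0.31) for Crabp2. Only 5.78% of all probe sets had a smaller SD than Crabp2.

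Rarb, the receptor gene that is itself induced by retinoic acid, stood lowest in the genotype in which Aldh1a3 stood highest. Its log2 signal was 8.81 and 8.42 in -/-, 8.85 and 8.56 in Neo/Neo, 8.64 and 8.68 in Neo2/-, 8.69 and 8.78 in Neo2/Neo, and 8.15 and 8.31 in Neo2/Neo2. It was 8.66 and 8.52 in +/-, 8.62 and 8.46 in Neo/+, 8.66 and 8.65 in Neo2/+, and 8.49 and 8.44 in WT. Neo2/Neo2 was the sole genotype separated from its neighbour in the order. The other 7 of 8 neighbouring genotypes overlapped, the same number as for Aldh1a2 and Crabp1, and for Crabp2 it was 6 of 8.

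Dhrs3 encodes a retinaldehyde reductase that lowers the supply of retinoic acid. Its log2 signal was 7.09 and 6.81 in -/-, 6.80 and 6.76 in Neo/Neo, 6.70 and 6.94 in Neo2/-, 6.79 and 7.02 in Neo2/Neo, and 6.45 and 6.71 in Neo2/Neo2. It was 6.89 and 6.71 in +/-, 6.61 and 6.78 in Neo/+, 6.70 and 6.58 in Neo2/+, and 6.56 and 6.48 in WT. WT was the lowest genotype by mean and -/- the highest, and all 8 neighbouring genotypes overlapped.

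Against WT, none of the 10 probe sets was called in any of the 8 other genotypes by limma. The share of all probe sets called was small as well: 0.0311% in -/-, 0.0822% in Neo/Neo, 0.00222% in each of Neo2/-, Neo2/Neo and Neo2/Neo2, 0% in +/-, 0.0311% in Neo/+ and 0% in Neo2/+. At an unadjusted p under 0.05, 2 of 10 probe sets passed in -/-, 0 in Neo/Neo, 1 in Neo2/-, 1 in Neo2/Neo, 2 in Neo2/Neo2, 1 in +/-, 0 in Neo/+ and 0 in Neo2/+, where 6.28% to 15.1% of all probe sets did. With 2 embryos per genotype the intervals are wide, so a difference that was not called is not shown to be absent. All 8 comparisons share the same 2 WT embryos.

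In -/- against WT, the difference with the smallest p was that of Dhrs3. It was 0.43 (SE 0.14, 95% interval 0.13 to 0.73, unadjusted p = 0.0081, adjusted p = 0.19), a 1.35-fold higher signal. Without -/- replicate 2 it was 0.57 with an adjusted p of 0.0374, in a fit that called 5121 of all probe sets where the fit of all arrays called 14. That setting leaves -/- replicate 1, which stood apart, as the only -/- embryo, and takes its spread from the other genotypes. Without -/- replicate 1 and +/- replicate 1 it was 0.29 with an adjusted p of 0.36. Aldh1a3 differed by 0.89 (0.02 to 1.76, adjusted p = 0.318), and leaving out 1 array moved this between 0.13 and 1.65, the lower value without -/- replicate 2. The other differences were 0.26 for Cyp26a1, 0.15 for Rarb, 0.13 for Crabp1, 0.11 for Aldh1a2, 0.11 for Crabp2 and -0.03 for Cyp26b1, and each interval included 0. The sign of Cyp26b1 turned to 0.02 when each array was centred on its median. The median over the 10 probe sets was 0.21, beside a median of -0.002 over all probe sets.

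Dhrs3 had the same sign in the other genotypes: it was higher than WT by 0.26 in Neo/Neo, 0.30 in Neo2/-, 0.39 in Neo2/Neo, 0.06 in Neo2/Neo2, 0.28 in +/-, 0.18 in Neo/+ and 0.12 in Neo2/+. The adjusted p was above 0.05 in each of them, and because the same WT pair enters every difference these signs are not independent. Aldh1a3 differed from WT by 0.27 in Neo/Neo, 0.46 in Neo2/-, -0.86 in Neo2/Neo, 1.33 in Neo2/Neo2, 1.03 in +/-, 0.75 in Neo/+ and 0.06 in Neo2/+. Of these, 1.33 in Neo2/Neo2 had an adjusted p of 0.252 in the fit of all genotypes, 0.0413 without +/- replicate 1 and -/- replicate 1, and 0.0293 in a fit of those 2 genotypes alone. Without +/- replicate 1 and -/- replicate 1 the fit called 911 of all probe sets in Neo2/Neo2, where the fit of all arrays called 1. The gain in calls was thus not particular to Aldh1a3.

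**Figure D2:**
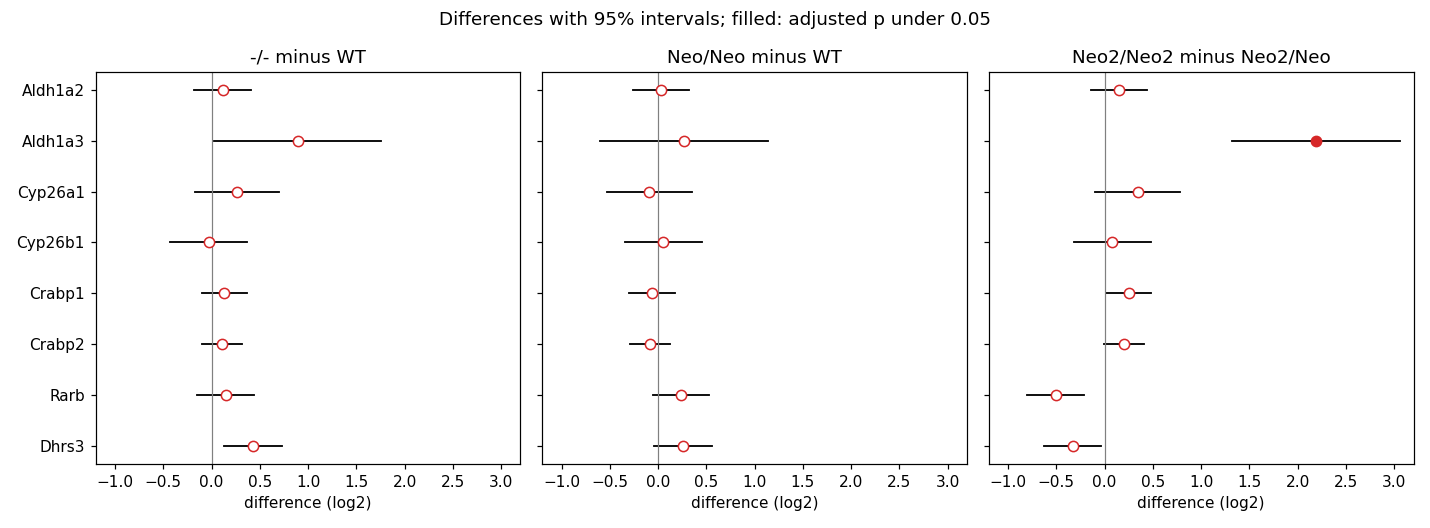
Log2 difference (horizontal axis) of each gene's brightest probe set in -/- minus WT, Neo/Neo minus WT and Neo2/Neo2 minus Neo2/Neo, with 95% intervals from limma; filled points had an adjusted p under 0.05. The one filled point is Aldh1a3 at 2.19 in Neo2/Neo2 minus Neo2/Neo.

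A test of any difference between the 9 genotypes called 0 of 10 probe sets, where 0.275% of all probe sets were called. Aldh1a3 came nearest (F = 5.46, unadjusted p = 0.00394, adjusted p = 0.17), and 2.32% of all probe sets had a smaller p. It passed without -/- replicate 1 (adjusted p = 0.029), without -/- replicate 2 (adjusted p = 0.0136), and without the 2 arrays that stood apart (adjusted p = 0.0208). Rarb had F = 2.58 (adjusted p = 0.394) and Dhrs3 F = 2.26 (adjusted p = 0.441).

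Grouping embryos by how many wild-type alleles they carried gave larger groups and no call. Tbx1 itself was not called there either (-0.77, adjusted p = 0.888 by limma). The group with 0 wild-type alleles pools genotypes whose mean Tbx1 signal ran from 5.07 in -/- to 6.62 in Neo2/Neo2. The lack of calls in this grouping therefore does not show that the genes were unchanged. Between 0 and 1 wild-type allele, 0 of 10 probe sets were called and 0% of all probe sets, and at an unadjusted p under 0.05 there were 0 of 10 and 4.53% of all. For Aldh1a3 the lowest, median and highest embryos were 5.31, 6.58 and 7.87 with 0 wild-type alleles and 6.07, 6.97 and 7.31 with 1. The group with 0 alleles enclosed the other on both sides. Differences of the 8 genes (0 minus 1 allele) ran from -0.20 for Aldh1a3 to 0.09 for Dhrs3, and every interval included 0.

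A regression on the Tbx1 signal of each embryo also called 0 of 10 probe sets and 0% of all probe sets. The 2 genes with an unadjusted p under 0.05, a mark passed by 8.74% of all probe sets, were Dhrs3 and Rarb. Dhrs3 was lower by 0.18 per log2 unit of Tbx1 (slope -0.18, 95% interval -0.29 to -0.06, adjusted p = 0.553). For Rarb the slope was -0.15 (-0.28 to -0.02, adjusted p = 0.56). The other slopes lay between 0.01 for Aldh1a2 and Crabp2 and 0.22 for Aldh1a3.

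The genotypes Neo2/Neo2 and Neo2/Neo were set against each other because they stood far apart in earlier results of these data, so the comparison was not chosen independently of them. Aldh1a3 was the 1 gene of the 8 that was called. It was higher in Neo2/Neo2 by 2.19 (SE 0.40, 95% interval 1.32 to 3.06, adjusted p = 0.0206), a 4.56-fold higher signal. The call covered 1 of 10 probe sets, where 2.65% of all probe sets were called. The other probe sets of Aldh1a3 differed by 1.51 (adjusted p = 0.0677) and 1.06 (adjusted p = 0.0786), in the same direction but without a call. The call was lost when any of the 4 embryos was left out, with adjusted p = 0.0559 and 0.174 without Neo2/Neo2 replicates 1 and 2, and 0.139 and 0.16 without Neo2/Neo replicates 1 and 2, while the difference stayed between 1.99 and 2.39. Tbx1 also differed between these genotypes, by 0.96 (adjusted p = 0.0127). Both Neo2/Neo2 embryos were male and the Neo2/Neo embryos were 1 female and 1 male, and with sex as a covariate the difference in Aldh1a3 was 2.14 (adjusted p = 0.0496).

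Rarb differed by -0.51 between Neo2/Neo2 and Neo2/Neo (95% interval -0.80 to -0.21), with an adjusted p of 0.0685. Without -/- replicate 1, or without -/- replicate 2, its adjusted p was 0.0215, and without both arrays that stood apart it was 0.0133. Dhrs3 differed by -0.33 (adjusted p = 0.229), Cyp26a1 by 0.34 (0.422), Crabp1 by 0.25 (0.255), Crabp2 by 0.20 (0.307), Aldh1a2 by 0.15 (0.643) and Cyp26b1 by 0.08 (0.889). At an unadjusted p under 0.05, 6 of the 10 probe sets passed, where 17.6% of all probe sets did. The 6 included all 3 probe sets of Aldh1a3, which read the same gene, beside those of Rarb, Dhrs3 and Crabp1.

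Other genes of the pathway did not pass in the comparisons with WT. Of 28 further genes of retinoid transport, metabolism and reception, 23 were measured, and of 24 genes known as retinoic acid targets, 19 were measured. None of either list was called in any genotype against WT, between the 9 genotypes, between 0 and 1 wild-type allele or along the Tbx1 signal. In -/- against WT the smallest p-values among the targets belonged to Nr2f1 (-0.45, adjusted p = 0.127) and Nr2f2 (-0.50, adjusted p = 0.163), which encode orphan nuclear receptors. In the first list they belonged to Fabp5, a fatty acid binding protein that also carries retinoic acid (0.29, adjusted p = 0.257), and Rdh11, a retinol dehydrogenase (0.23, adjusted p = 0.459). The median difference in -/- against WT was 0.10 over the 23 genes and -0.12 over the 19 targets.

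Between Neo2/Neo2 and Neo2/Neo, 4 of the 19 targets were called, 1 higher and 3 lower, and 0 of the 23 other genes, where 0.97% of all probe sets were called higher and 1.68% lower. Hoxb1, a Hox gene of the hindbrain and posterior embryo, was 8.22 and 8.38 in Neo2/Neo2, against 6.39 and 6.35 in Neo2/Neo, a rise of 1.93 (adjusted p = 0.0225). Nr2f1 was 11.37 and 11.45 in Neo2/Neo2, against 11.98 and 11.97 in Neo2/Neo, lower by 0.56 on the log2 scale (-0.56, adjusted p = 0.0216). Hoxb3, a hindbrain and neck Hox gene, differed by -0.66 (adjusted p = 0.0225), and Meis2, a Hox cofactor, by -0.43 (adjusted p = 0.025). Over the whole list 5 targets had a positive and 14 a negative difference, with a median of -0.11, beside 0.04 over all probe sets. No target was called without any one of the 4 embryos of these genotypes, 7 were called without -/- replicate 1 or without -/- replicate 2, and 1 with embryo sex as a covariate. In the other list the smallest p-values were those of Ttr, a retinol transport protein (-1.68, adjusted p = 0.0826), and Aldh1a1, another retinaldehyde dehydrogenase (-1.15, adjusted p = 0.122). Ttr and Rbp4, the retinol-binding protein of serum (-0.83, adjusted p = 0.242), are also markers of the visceral yolk sac endoderm.

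Markers of embryonic regions moved with these results. A list of 9 measured tail bud and presomitic mesoderm genes lay 0.65 and 0.78 above its mean over all arrays in the Neo2/Neo2 embryos, and at -0.49 and -0.36 in the Neo2/Neo embryos. In the -/- embryos it lay at -0.35 and 0.74, the higher value in the embryo with the higher Aldh1a3, and in the WT embryos at -0.26 and -0.27. Between Neo2/Neo2 and Neo2/Neo, 4 of the 9 tail bud genes were called, all higher, and 6 of 11 hindbrain and neural genes, all lower. Over all probe sets, 0.97% were called higher and 1.68% lower. Of 11 visceral yolk sac endoderm genes 2 were called, both lower, with a median difference of -0.83. Calls were also made for 2 of 9 cardiomyocyte genes and 2 of 8 early embryo and timing genes, all higher. In the pharyngeal endoderm list 1 of 8 was called higher, in the uterine list 1 of 9 higher, and in the somite and limb bud list 1 of 8 lower. The erythroid, placenta and decidua, and otic lists had 0 calls. The yolk sac list lay at -0.53 and -0.19 in the Neo2/Neo2 embryos and at 0.64 and 0.58 in the Neo2/Neo embryos. In whole embryos, fewer cells of a type and less RNA per cell cannot be told apart. The part of these lists in the differences of Aldh1a3, Rarb, Ttr and the targets was not tested.

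**Figure D3:**
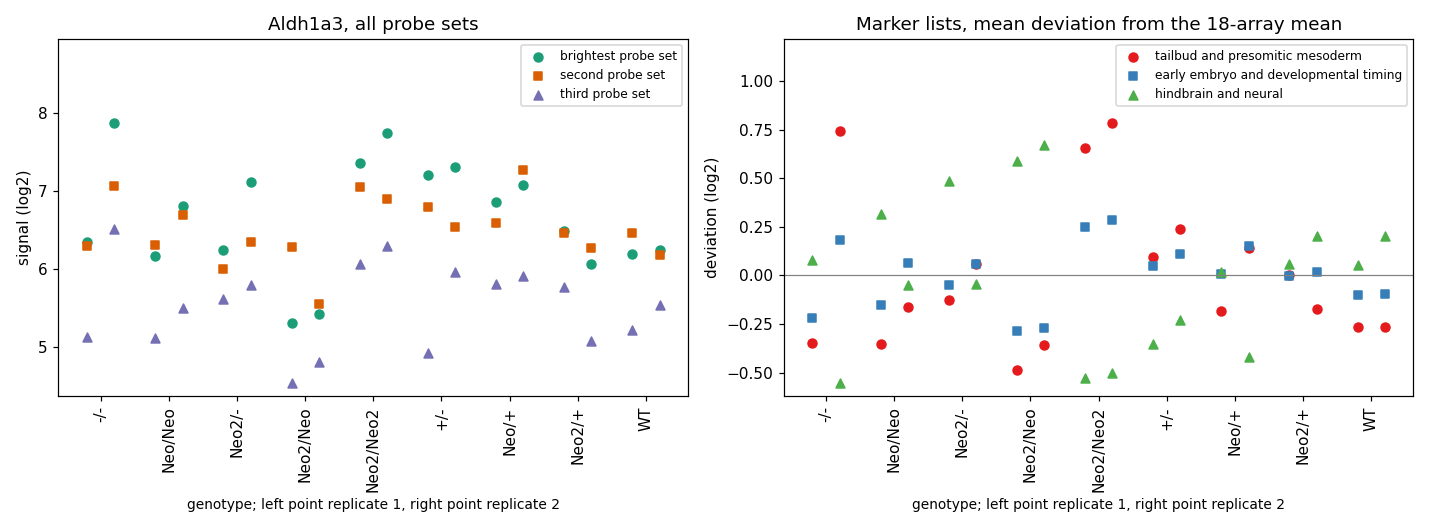
Left, log2 signal of the 3 Aldh1a3 probe sets in each embryo; right, mean log2 deviation from the 18-array mean of the tail bud, the early embryo and timing, and the hindbrain and neural lists; genotypes run from -/- at the left to WT at the right, with replicate 1 left of replicate 2. In Neo2/Neo2 and in -/- replicate 2 the brightest probe set read 7.36, 7.75 and 7.87 and the tail bud list 0.65, 0.78 and 0.74, while in Neo2/Neo the same probe set was at 5.31 and 5.42 and the tail bud list at -0.49 and -0.36.

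Over the 18 arrays, the signal of Aldh1a3 followed the tail bud list with r = 0.88 (rho = 0.91, permutation p = 1e-05, adjusted p = 0.00022) and the neural list with r = -0.94 (rho = -0.93, permutation p = 1e-05, adjusted p = 0.00022). The p of 1e-05 is the smallest that 100000 resamples can give, and adjustment was over 88 pairs of 8 genes and 11 lists, a set of relations added after the data were seen. The resamples shuffled all 18 arrays freely, although embryos share a genotype in pairs, so these p-values may be too small. A list of early embryo and developmental timing genes gave r = 0.91 with Aldh1a3 (rho = 0.88, permutation p = 1e-05, adjusted p = 0.00022). With the yolk sac list Aldh1a3 had r = -0.75 (rho = -0.75, permutation p = 0.0003, adjusted p = 0.00293), and r was -0.58 without both Neo2/Neo embryos. Aldh1a3 was related to further lists as well. These were placenta and decidua (r = 0.76, permutation p = 0.00026, adjusted p = 0.00293), primitive erythroid cells (r = -0.71, permutation p = 0.00114, adjusted p = 0.00772) and otic vesicle and placodes (r = 0.58, permutation p = 0.0113, adjusted p = 0.0452). In the placenta list Prl3c1, Psg17, Tpbpa, Prl8a2 and Ctsq had means of only 3.02 to 3.50, and the list moved only between -0.20 and 0.21. Its r is therefore not a reading of placental tissue. Without the 2 embryos farthest from the median of Aldh1a3, both Neo2/Neo, r was 0.90 with the tail bud list, -0.91 with the neural list and 0.85 with the early embryo list. Cyp26a1 followed the tail bud list with r = 0.81 (rho = 0.79, permutation p = 1e-05, adjusted p = 0.00022), and without its 2 farthest embryos r was 0.74. Further lists also passed for Cyp26a1: neural (r = -0.76), early embryo (0.74), otic (0.66), pharyngeal endoderm (0.615), yolk sac (-0.60) and erythroid (-0.60). Rarb ran the other way with the tail bud list, with r = -0.765 (rho = -0.68, permutation p = 0.00027, adjusted p = 0.00293), and r was -0.58 without both Neo2/Neo2 embryos. Its largest r was with the early embryo list (-0.77). The yolk sac (0.73), neural (0.70) and cardiomyocyte (-0.63) lists passed for Rarb as well, so neither gene was tied to the tail bud list alone. Aldh1a2 had its largest r with the list of somite and limb bud genes (r = 0.68, rho = 0.68, permutation p = 0.00146, adjusted p = 0.00918), and r was 0.56 without its 2 farthest embryos. For Aldh1a2 r was also 0.61 with the early embryo list (permutation p = 0.00779, adjusted p = 0.0381) and -0.61 with the primitive erythroid list (permutation p = 0.00876, adjusted p = 0.0386). With the tail bud list it had r = 0.54 (rho = 0.67, permutation p = 0.0201, adjusted p = 0.0671).

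Among the 28 pairs of the 8 genes, 6 were correlated over the 18 arrays at an adjusted p under 0.05, by permutation of Pearson's r. Crabp1 and Crabp2 ran together with r = 0.84 (rho = 0.88, permutation p = 2e-05, adjusted p = 0.00056), and r was 0.95 without the 2 farthest embryos. Aldh1a3 and Cyp26a1, a synthesis and a breakdown gene, had r = 0.79 (rho = 0.82, permutation p = 0.00018, adjusted p = 0.00252), and r was 0.86 without both Neo2/Neo embryos. For this pair the correlation of the deviations from the genotype means was 0.88, which was not tested. With 2 embryos per genotype it rests on 1 difference in each genotype. The widest was that of the -/- embryos, at 6.35 and 7.87 for Aldh1a3 and 7.26 and 7.94 for Cyp26a1, and 1 of these arrays stood apart. All correlations here are over embryos that share a genotype in pairs, and all genes were read on the same arrays.

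**Figure D4:**
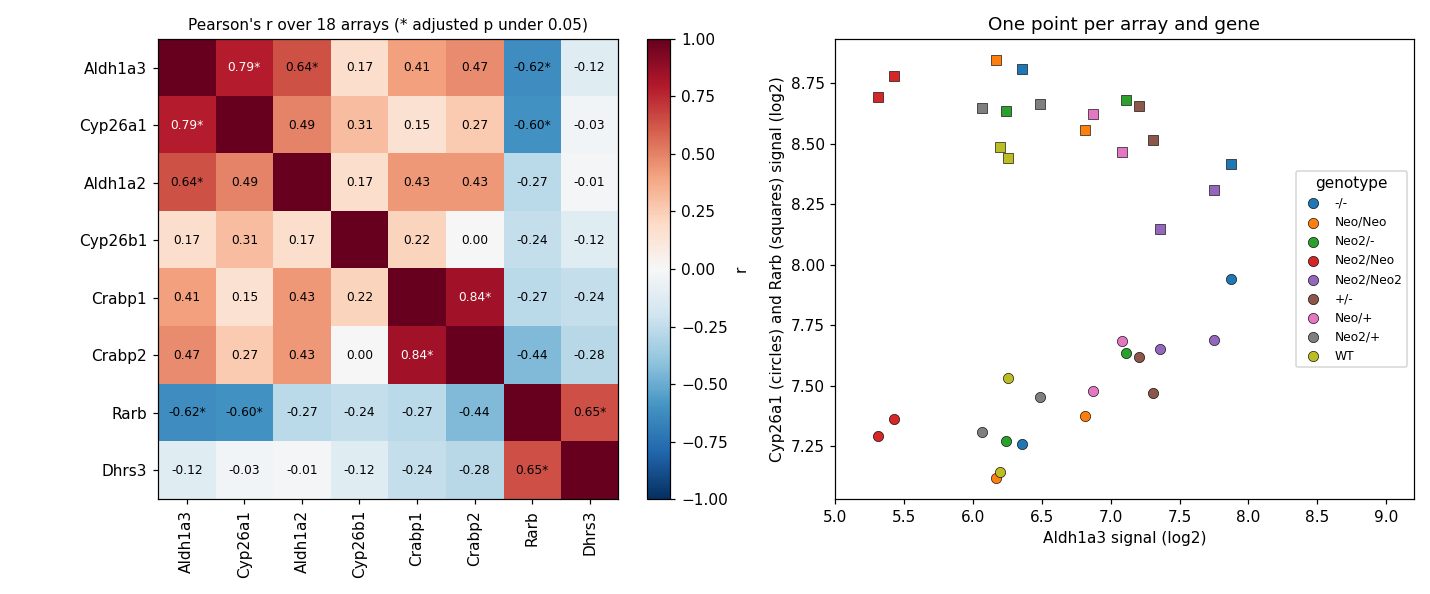
Left, Pearson's r over 18 arrays for the 28 pairs of the 8 measured genes, as a colour from -1 to 1 with the value in each cell and an asterisk where the adjusted p was under 0.05; right, log2 signal of Cyp26a1 (circles) and Rarb (squares) against that of Aldh1a3 in each embryo, coloured by genotype. Cyp26a1 was higher (r = 0.79) and Rarb lower (r = -0.62) where Aldh1a3 was higher.

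The remaining 4 pairs passed with adjusted p-values between 0.0295 and 0.0342. Rarb and Dhrs3 had r = 0.65 (rho = 0.61, permutation p = 0.00382), Aldh1a2 and Aldh1a3 r = 0.64 (rho = 0.56, permutation p = 0.00509), Aldh1a3 and Rarb r = -0.62 (rho = -0.63, permutation p = 0.00526), and Cyp26a1 and Rarb r = -0.60 (rho = -0.66, permutation p = 0.00732). Without the 2 farthest embryos the 4 values of r were 0.58, 0.51, -0.58 and -0.51. The number of pairs that passed fell to 2 without Neo2/Neo replicate 2, and to 3 without Neo2/Neo2 replicate 2 or without -/- replicate 2.

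Among 18181 other genes, those most like each of the 8 over the 18 arrays were taken by Pearson's r. For Aldh1a3 these were Car4 (r = 0.95), Ifitm1 (0.95) and Pawr (0.94), of which Ifitm1 is expressed in the tail bud. Cyp26a1 was most like Tbx6 (0.90), a transcription factor gene of the presomitic mesoderm, Tmem209 (0.90) and Aatf (0.89). Rarb was most like Tcf19 (0.91), Pogk (0.89) and Foxp2 (0.88), and Dhrs3 most like Tm4sf1 (0.81), Alx1 (0.79) and Tm2d2 (0.78). Crabp1 was most like Lrrfip2 (0.88), Crabp2 most like Ppa1 (0.89), Aldh1a2 most like Twnk (0.81) and Cyp26b1 most like Stat5b (0.79). These are the highest of all 18181 values and are given as a description.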

How the data were processed

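Total RNA of 18 whole embryos (6 ug each) was hybridised to Affymetrix mouse arrays, and the authors deposited log2 values per probe set. The submitters' processing notes name affy and RMA, with versions not given in the sources used. RMA gives no detection call, and precision is limited by the number of arrays. The values were used as deposited, without a filter. A gene was read from its brightest probe set (highest mean over the arrays) with a single symbol, and 34945 probe sets had 1 symbol, 932 several and 9160 none.

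Tests used limma 3.58.1 under R 4.3.3 (lmFit and eBayes, two-sided, 9 genotype means, 9 residual and 3.63 prior degrees of freedom), adjusted by Benjamini-Hochberg over all 45037 probe sets. Fits by wild-type alleles left 15 and on the Tbx1 signal 16 residual degrees of freedom. The scripts were tested on simulated data. The labels call the 2 embryos of a genotype biological replicates, and nothing says whether they share a litter.

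All 9 genes were to be named, with up to 4 genes per further list and comparison (those that pass, otherwise the 2 with the smallest p) and the 3 most alike genes per member. The genes, the lists, the tests and the comparison of Neo2/Neo2 with Neo2/Neo were chosen with earlier results of these data known. With 8 genes measured, 28 pairs were correlated. Alternatives left out arrays or changed the block, variance model, weights, filter, scaling, sex term, samples or probe sets.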

Additional observations from a re-analysis of the deposited data

How the results depend on the processing

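In the 8 comparisons with WT, the number of the 10 probe sets called was 0 under each alternative, except for 1 in Neo2/Neo2 in a fit of the 2 genotypes alone and without both +/- replicate 1 and -/- replicate 1, and 0 to 1 in -/- when single arrays were left out. For any difference between genotypes it was 1 with array weights, 2 without both arrays, and 0 to 1 without single arrays. For Neo2/Neo2 against Neo2/Neo it was 2 with the replicate number as a block, 4 with array weights, 2 with probe sets above the median mean, 4 in a fit of the 2 genotypes alone, 4 without both arrays, and 0 to 4 without single arrays. Of the 19 targets there, 8 were called with array weights, 1 with embryo sex as a covariate, 7 in a fit of the 2 genotypes alone, 7 without both arrays, and 0 to 7 without single arrays. Correlated pairs numbered 2 to 7 without single arrays. Over all probe sets, the number called was 14 in -/- against WT, with 0 without -/- replicate 1 and 5121 without -/- replicate 2, 1195 in Neo2/Neo2 against Neo2/Neo, with 0 without Neo2/Neo2 replicate 2 and 6791 with array weights, and 124 for any difference, with 21 without Neo/Neo replicate 1 and 4777 without +/- replicate 2. For the other genotypes against WT it was 37 in Neo/Neo (0 to 136), 1 in Neo2/- (0 to 17), 1 in Neo2/Neo (0 to 23), 1 in Neo2/Neo2 (0 to 911), 0 in +/- (0 to 5066), 14 in Neo/+ (0 to 68) and 0 in Neo2/+ (0 to 21), and for the slope on Tbx1 0 (0 to 2). For Neo2/Neo2 against Neo2/Neo, the counts of the 10 probe sets and 19 targets under each alternative belong beside the array-wide total of that alternative. With array weights that total was 6791 of 45037, against 1195 in the main fit. Totals for alternatives between the extremes are not given here. Of the 10 probe sets, 3 read Aldh1a3. The causes were not tested.

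Whether replicate numbers pair the embryos could not be decided. Deviations of same-numbered embryos correlated at -0.262 to 0.186, and 12 of 18 embryos correlated best with their own number. With 2 embryos per genotype the deviations of a pair mirror each other, so the 18 results are not independent. With the replicate number as a block, the count for Neo2/Neo2 against Neo2/Neo was 2, as given above, against 1 without it, and 5 of the 19 targets were called. The counts of the 10 probe sets in the other comparisons stayed at 0 with the block. Where leaving out an array left 1 embryo in a genotype, that embryo was assumed to vary like those of the other genotypes.

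Signs turned for differences near 0. Cyp26b1 in -/- against WT was 0.0186 with each array centred on its median and 0.12 without both arrays, and Rarb there was -0.0494 without both arrays. Cyp26b1 in Neo2/Neo2 against Neo2/Neo was -0.053 with sex as a covariate. Between 0 and 1 wild-type allele, centring gave 0.0273 for Crabp1, 0.0192 for Crabp2 and 0.0235 for Rarb, weights gave 0.0299 for Rarb, and leaving out both arrays gave 0.00199 for Cyp26a1. The slope of Aldh1a2 was -0.0261 without both arrays. Without single arrays, the values that crossed 0 are given as lowest to highest. In -/- against WT they ran -0.0558 to 0.282 for Aldh1a2, -0.0765 to 0.602 for Cyp26a1, -0.183 to 0.123 for Cyp26b1, -0.0494 to 0.345 for Rarb. In Neo2/Neo2 against Neo2/Neo they ran -0.0101 to 0.305 for Aldh1a2, -0.0842 to 0.241 for Cyp26b1. In 0 against 1 wild-type allele they ran -0.0122 to 0.0743 for Cyp26b1, -0.0458 to 0.0224 for Crabp1, -0.0444 to 0.00575 for Crabp2, -0.0371 to 0.0408 for Rarb. In the slope on the Tbx1 signal they ran -0.018 to 0.0432 for Aldh1a2, -0.00178 to 0.0446 for Crabp1, -0.00518 to 0.034 for Crabp2. In Neo2/+ against WT they ran -0.156 to 0.267 for Aldh1a3. In Neo/Neo against WT they ran -0.0591 to 0.594 for Aldh1a3.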
